A study of Mus musculus with 10 samples.

Results

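The clustered protocadherins are a family of cell-surface adhesion genes that lie side by side on mouse chromosome 18, in an alpha, a beta and a gamma cluster. All genes of the deposited count table with a symbol of this family were taken, which gave 58 of 49315 genes: 14 alpha, 22 beta and 22 gamma members. The tissue was the layer of granule cells, the principal neurons of the dentate gyrus of the hippocampus, dissected from its dorsal part in male C57 BL/6 mice, and poly(A) RNA was sequenced with a kit that keeps strand. The cocaine self-administration group and the saline self-administration group each had 5 mice and 5 libraries. The labels name no transgene and give no age, dose, session schedule or time of dissection. The members were chosen by symbol, but with the earlier result known that Pcdhga2 differed between the groups. The members' values in that contrast are therefore given as a description, and where the calls of a test over all genes are counted among them, nothing is read from those calls.

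Clustered protocadherins are single-pass membrane proteins with extracellular cadherin repeats that bind the same isoform on a facing membrane. Each neuron switches on a small set of the alternate isoforms by choosing among their promoters, a choice that involves CTCF, cohesin and DNA methylation, and the set gives the cell a surface identity used in self-avoidance of its own branches. The C-type genes at the end of the alpha and gamma clusters (Pcdhac1, Pcdhac2, Pcdhgc3, Pcdhgc4 and Pcdhgc5) are regulated differently and are transcribed more uniformly across neurons. In the alpha and gamma clusters 1 variable exon per isoform, which codes for the outer part, the membrane span and a part of the tail, is spliced to constant exons that all isoforms of the cluster share. A beta gene has 1 coding exon and no constant exons.

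The shared 3′ exons decide what a count can mean here. In GENCODE M21 (mm10), exon bases common to all 14 alpha members lay in blocks of 59, 89 and 2712 bases, at chr18:37156155-37156213, chr18:37159265-37159353 and chr18:37184946-37187657. Those common to all 22 gamma members measured 59, 89 and 1968 bases, at chr18:37825021-37825079, chr18:37833265-37833353 and chr18:37839903-37841870. A read from these blocks cannot be given to 1 member, so a member's count can tell it from the others only through its variable exon and any private untranslated bases. The bases that no other gene covered on the same strand, called unshared bases here, ranged from 494 to 4606 in alpha, from 2588 to 8695 in beta and from 1570 to 4614 in gamma members. Among beta genes only the neighbours Pcdhb21 and Pcdhb22 shared bases, 455 of them.

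**Figure D1:**
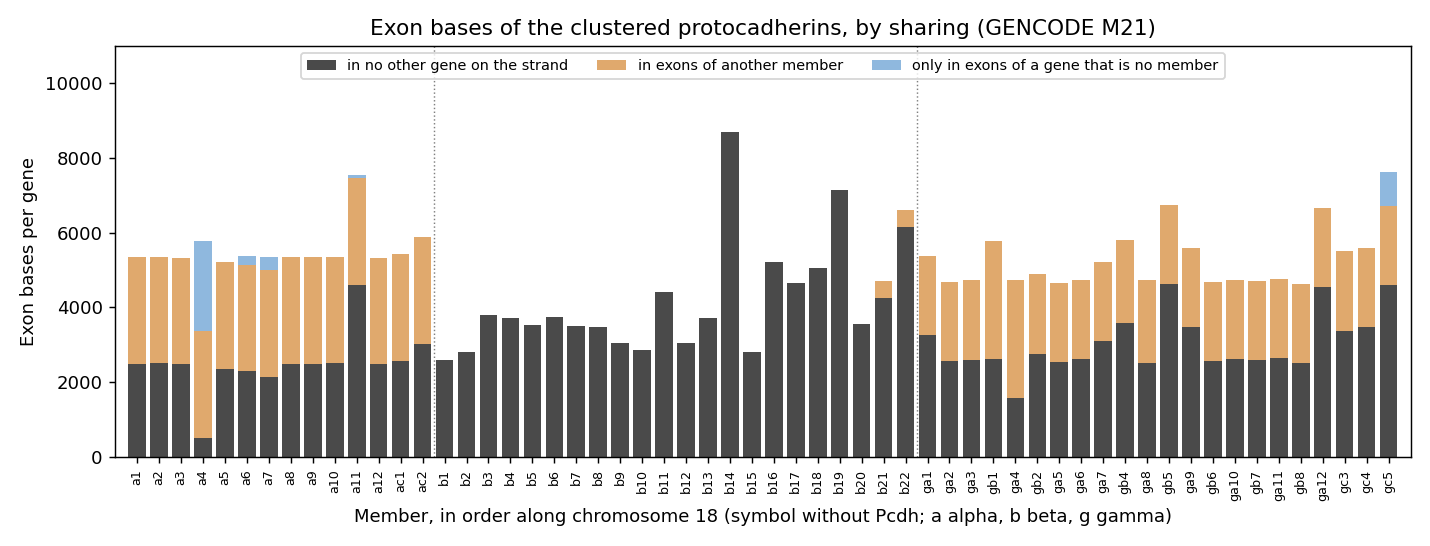
Exon bases of each member (vertical axis, bases) in order along chromosome 18, split into bases in no other gene on the strand, bases in exons of another member, and bases found only in exons of a gene that is no member. Alpha and gamma members carry a shared block of at least 2116 bases each, beta members other than Pcdhb21 and Pcdhb22 carry none, and Pcdha4 has 2410 bases that overlap a gene outside the family.

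Pcdha4 had 0 counts in all 10 libraries, although its neighbours Pcdha3 and Pcdha5 had 726 and 1109 counts in total. Its variable exon is covered over 2410 bases by Gm42416, annotated as a protein-coding gene that runs from there into the gamma constant exons, and 494 of its 5768 exon bases were unshared. Gm42416 itself also had 0 counts in every library. The like annotations Gm37013 and Gm37388, which overlap Pcdha6 by 222 and Pcdha7 by 338 bases, had 0 counts too, as did Gm18150, which overlaps Pcdha11 by 69 bases. Gm38182, which overlaps the gamma constant exons, was also at 0. Whether the overlap gave the 0 of Pcdha4 was not tested, and Pcdha4 was left out of all levels.

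Antisense annotation covers several members, and the strand setting of the count is not given in the sources used here. Pcdhga10 had 2613 unshared bases on its own strand but 0 that were also free of antisense exons, and it still had 3152 counts in total. Lengths were therefore taken on the gene's own strand. GENCODE M21 gives the symbol Pcdha11 to 2 genes. The one that starts at 37005203 lies where RefSeq places Pcdha10 on the same build, and it is called Pcdha10 below.

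Sequence that a member has in common with other annotated genes can also cost reads. The shares below include exon overlaps that were already left out of the unshared bases, so they are not wholly a further loss. Such overlaps with genes outside the family measured 2410 bases in Pcdha4, 222 in Pcdha6, 338 in Pcdha7 and 902 in Pcdhgc5. Of the 100-base words of each member's variable exon (or, in beta genes, its 1 exon), the median share found in transcripts of another gene was 6.36% in alpha, 0.207% in beta and 0% in gamma members. Pcdhga4 stood out in gamma with 37.4%, all of it shared with the annotated exons of Pcdhgb1, and Pcdhgb2 and Pcdhgc5 had 10.7% and 12.6%. In alpha the share was 96.1% for Pcdha4, 17.5% for Pcdha7, 16.2% for Pcdha6 and 13.0% for Pcdha11. With only other members counted, it was 4.1% for Pcdha4, 7.4% for Pcdha7, 5.6% for Pcdha6 and 0% for Pcdhgc5. Their remaining shared words were found only in genes outside the family. For Pcdhga4, Pcdhgb2 and Pcdha11 the share was the same either way. Counts of these 7 members are less certain than the rest. For Pcdhga2 the share was 0% at 100 bases and 0.317% at 50 bases.

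Total counts ran from 34991548 to 46481533 per library, and the 58 members together took 0.0433% to 0.0629% of them. Levels below are CPM, a gene's count relative to its library total after TMM scaling, and where genes are compared they are CPM per kb of unshared exon. Cocaine replicate 5 lay apart, at −41.4 on a first principal component with 32.9% of the variance, where the others lay between −12.6 and 21.7. The summed choroid plexus markers were highest in cocaine replicate 5 (3608 CPM), cocaine replicate 1 (2159 CPM) and saline replicate 3 (1393 CPM), against at most 804 CPM elsewhere. Summed oligodendrocyte markers ran from 3713 to 9956 CPM with cocaine and from 3668 to 5264 CPM with saline, with 9 of 9 markers at a fold change above 1 and a median log2 fold change of 0.67. For choroid plexus markers 8 of 8 were above 1, with a median of 0.80. Summed granule cell markers, the intended cells, ran from 846 to 1417 CPM with cocaine and from 1023 to 1454 CPM with saline, with 1 of 6 above 1, a median of −0.14 and none at 0. Summed markers of GABAergic interneurons ran from 563 to 709 and from 625 to 704 CPM, and those of astrocytes from 1222 to 1716 and from 1311 to 1566 CPM. The part of these mixtures in the members' values was not tested, and in bulk tissue fewer cells of a type and less RNA per cell cannot be told apart.

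Gamma members had the highest levels, then beta, then alpha. The mean over members was 4.57 ± 0.648 CPM per kb for gamma, 2.05 ± 0.228 for beta and 1.39 ± 0.342 for the 13 alpha members other than Pcdha4 (SD over libraries, n = 10). Within each library gamma exceeded beta by 1.03 to 1.28 log2 units, and beta exceeded alpha by 0.27 to 1.00 (mean 0.60). All 10 libraries gave the same order. Each of the 3 pairs had p = 0.00195 in a two-sided exact permutation test by sign flips over libraries, the smallest the design can give, and 0.00195 after adjustment over the 3 pairs. The libraries share their tissue and annotation, so this test speaks for the libraries and not for the choice of length, and the sizes depended on that choice. Per kb of all exon bases the mean log2 difference of beta minus gamma was −0.36 in place of −1.15, and that of beta minus alpha was 1.64 in place of 0.60. With the median over members in place of the mean, beta minus alpha was 0.91. With the C-type genes left out, an alternative added after seeing the data, beta minus gamma was −0.63 and beta minus alpha 1.29, at mean levels of 3.19 for gamma, 2.05 for beta and 0.854 for alpha CPM per kb. The order was gamma, beta, alpha in each of these. Whether reads lay evenly along transcripts was not tested, and uneven coverage could bear differently on clusters with and without shared 3′ exons.

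C-type genes took a large part of the alpha and gamma clusters. Pcdhgc5, which neurons switch on after birth and whose protein binds GABA-A receptors, had the highest level of all members. It stood at 19.9 ± 3.45 CPM per kb (SD, n = 10), next to Pcdhgc3, which promotes dendrite branching, at 17.3 ± 1.56. Per kb, Pcdhgc5 was above Pcdhgc3 in 9 of 10 libraries, all but cocaine replicate 5, by a mean of 0.19 log2 units (SD 0.18). This gap depended on the lengths, 4606 and 3380 unshared bases. In CPM not divided by length Pcdhgc5 averaged 91.9 and Pcdhgc3 58.6, and in cocaine replicate 5 they stood at 67.5 and 53.7. Pcdhgc4, needed for survival of neurons, was far lower at 2.66 ± 0.273 CPM per kb. Among alpha members Pcdhac2, which spaces the axons of serotonin neurons, stood at 7.55 ± 2.07 CPM per kb and Pcdhac1 at 1.09 ± 0.368. The 2 alpha C-type genes held 46.4% to 54.2% of the alpha counts across libraries. The 3 gamma C-type genes held 47.3% to 51.5% of the gamma counts.

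Among the alternate gamma genes the highest level was that of Pcdhga11, at 8.75 ± 2.12 CPM per kb, followed by Pcdhga3 at 5.77 ± 1.12 (SD, n = 10). The lowest was Pcdhgb8, annotated as a polymorphic pseudogene, at 0.496 ± 0.198. The 12 A-type gamma genes had a median of 3.27 CPM per kb and a range of 1.80 to 8.75. The 7 B-type genes had a median of 2.27 and a range of 0.496 to 5.32. Pcdhga2 was ninth among the 22 gamma members, at 3.38 ± 1.00 CPM per kb. A-type and B-type genes thus overlapped widely in level.

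Beta genes were led by Pcdhb9 at 7.33 ± 1.24 CPM per kb, Pcdhb7 at 4.57 ± 0.434 and Pcdhb17 at 4.22 ± 0.319 (SD, n = 10). Per kb, Pcdhb7 was above Pcdhb17 in 8 of 10 libraries, by a mean of 0.12 log2 units (SD 0.18), so their difference was smaller than its spread. That order came from the lengths, 3501 and 4660 unshared bases. In CPM not divided by length Pcdhb17 was the higher, at a mean of 19.6 against 16.0. Pcdhb1, at the 5′ end of the cluster, had 44 counts over all libraries and 0 to 10 in each, and did not pass the low-count filter. In alpha the highest alternate genes were Pcdha12 at 2.27 ± 0.621 and Pcdha9 at 1.29 ± 0.458 CPM per kb, and the lowest was Pcdha8 at 0.140 ± 0.0792. The position of an alternate gene along its cluster went with its level by a Spearman rho of 0.345 over 11 alpha genes, 0.0457 over 22 beta genes and 0.0895 over 19 gamma genes. These points share libraries and depth, and rho is given as a description.

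**Figure D2:**
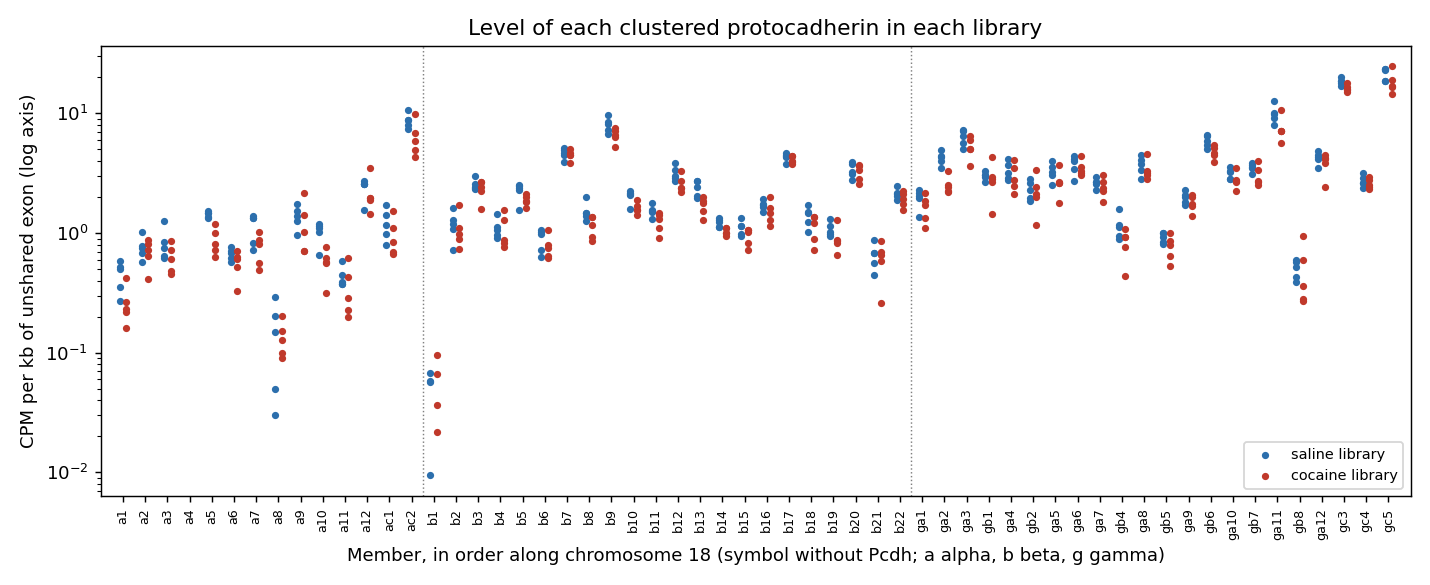
Level of each member in each library (vertical log axis, CPM per kb of unshared exon), in order along chromosome 18; each point is 1 library, blue for saline and red for cocaine, and libraries at 0 are not drawn. Pcdhgc5 and Pcdhgc3 stand highest, at means of 19.9 and 17.3 CPM per kb, alpha genes other than Pcdhac2 stay at or below a mean of 2.27, and Pcdha4 has no points.

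In the cocaine libraries the summed level of each cluster was lower in the mean, with 1 exception among the libraries. The 58 members together stood at 493, 635, 488, 517 and 422 CPM in cocaine replicates 1 to 5, and at 634, 545, 560, 634 and 635 CPM in saline replicates 1 to 5. Cocaine replicate 2 was thus as high as the highest saline libraries, and the other 4 cocaine libraries lay below every saline library. The alpha sum was 42.3 ± 12.9 CPM in the cocaine group and 56.2 ± 7.29 CPM in the saline group (SD, n = 5). The beta sum averaged 165.9 CPM in the cocaine group, with libraries from 142 to 189.9, and 191 CPM in the saline group, with libraries from 177 to 204. The gamma sum was 303 ± 48.3 CPM in the cocaine group and 354 ± 28.0 CPM in the saline group. Groups overlapped in all 3 sums through cocaine replicate 2.

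**Figure D3:**
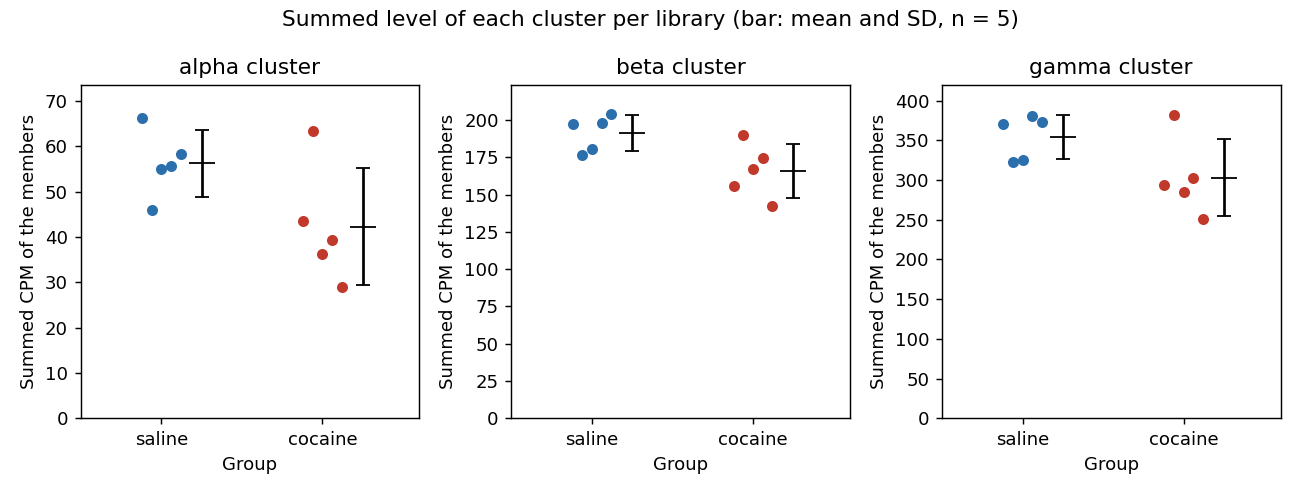
Summed CPM of the alpha, beta and gamma members (vertical axes, starting at 0) in each library by group; points are libraries and bars are mean and SD, n = 5. In each cluster 4 of the 5 cocaine libraries lie below every saline library, while cocaine replicate 2 lies among or above them.

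All 56 members that passed the low-count filter had a fold change below 1, and 0 had one above 1. Of the 17080 genes tested, 46.4% were below 1 and 53.6% above. The median log2 fold change (cocaine over saline) was −0.23 over the 56 members and 0.02 over all genes tested. It was −0.33 for 13 alpha, −0.25 for 21 beta and −0.18 for 22 gamma members, whose median SEs were 0.26, 0.15 and 0.15. The members share 1 chromosomal region, the same libraries and the same cells, so they are not independent of each other. Since the members were proposed with this contrast in view, nothing is read from their share. Called by edgeR at an adjusted p under 0.05 were 0 of 56 members, where the background was 0% of all genes tested higher and 0% lower.

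The size of the difference depended on single libraries, in both directions. Without cocaine replicate 2, 56 of 56 members were below 1, and the median was −0.34 over all members, −0.56 for alpha, −0.29 for beta and −0.30 for gamma. Without cocaine replicate 5, 51 of 56 members had a fold change below 1 and the median was −0.17. Without the 3 libraries richest in choroid plexus markers, a choice made after the data were seen, 46 of 56 did and the median was −0.14, with −0.27 for alpha, −0.13 for beta and −0.13 for gamma. The lowest of the 10 libraries was cocaine replicate 5 for 29 of 56 members, against 24.8% of all genes tested, and a cocaine library for 52, against 62.3%. The highest was cocaine replicate 2 for 13 members, against 10.6%, and a saline library for 41, against 37.2%. Cocaine replicate 5 also had the lowest granule cell marker sum (846 CPM) and the highest oligodendrocyte sum (9956 CPM); their part in the members' values was not tested. A correction for GC content and transcript length, also added later, left all 56 below 1 with a median of −0.20.

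**Figure D4:**
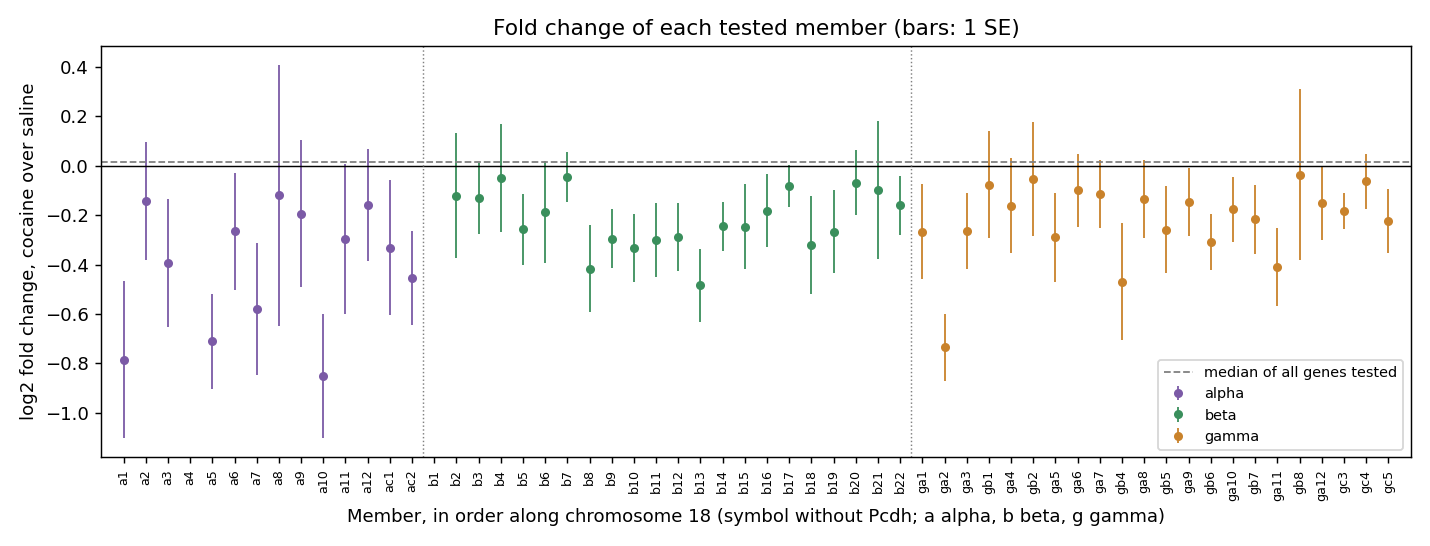
The log2 fold change of cocaine over saline for each of the 56 tested members (vertical axis; bars are 1 SE) in order along chromosome 18, with the median of all genes tested as a dashed line. All points lie below 0, from −0.85 for Pcdha10 to −0.04 for Pcdhgb8, and many bars reach the dashed line.

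Pcdhga2, the second gene of the gamma cluster (ENSMUSG00000103332, chr18:37668953-37841870, plus strand), was the member for which this family was singled out. Its level was 8.91, 11.3, 11.2, 12.6 and 10.3 CPM in saline replicates 1 to 5 and 6.50, 8.42, 5.68, 6.21 and 5.83 CPM in cocaine replicates 1 to 5. Every cocaine library lay below every saline library, although the closest pair, cocaine replicate 2 and saline replicate 1, differed by less than the SD of either group. The group means were 6.53 ± 1.11 CPM in the cocaine group and 10.9 ± 1.37 CPM in the saline group (SD, n = 5), a log2 fold change of −0.73 (SE 0.14). The gene was chosen for differing in these same libraries, so calls of it give no further support. It was not called by edgeR, and it was the 1 member called by DESeq2 (0.117% of all genes called higher and 0.00585% lower), by voom from limma, which weights samples (0.533% and 0.0234%), and by edgeR without cocaine replicate 5 (0.729% and 0.0174%).

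The share of Pcdhga2 in the gamma cluster's own counts was also taken, a measure that library scaling does not change. It was 2.41%, 3.49%, 3.45%, 3.32% and 2.77% in saline replicates 1 to 5 and 2.22%, 2.21%, 1.99%, 2.05% and 2.32% in cocaine replicates 1 to 5. The groups did not overlap in this share, at 2.16% ± 0.134 with cocaine and 3.09% ± 0.478 with saline (SD, n = 5), but cocaine replicate 5 and saline replicate 1 lay closer together than the SD of either group. The share is built from the counts for which Pcdhga2 was chosen and is a description of them. Of the other members, 31 had a higher and 25 a lower mean share of their cluster with cocaine, with overlapping groups in each, and Pcdha4 had none.

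**Figure D5:**
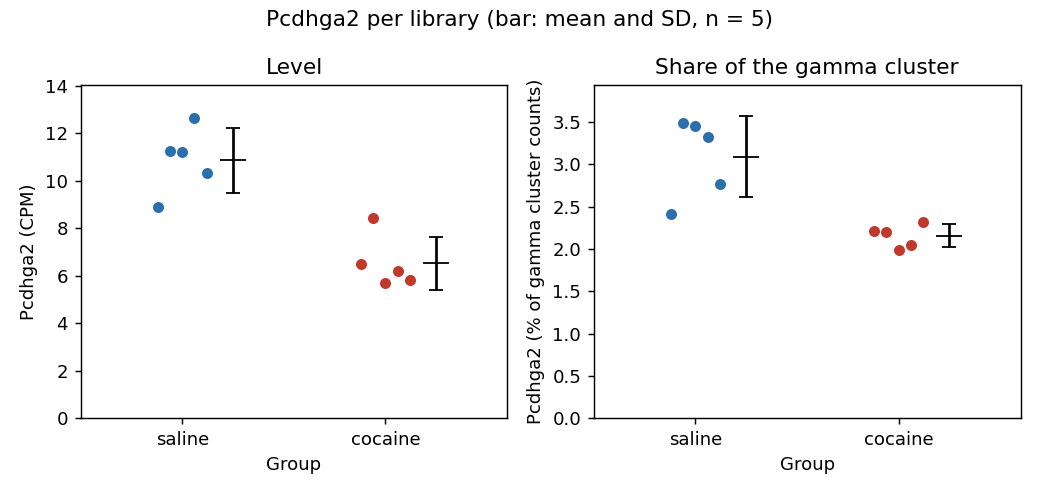
Pcdhga2 in each library by group, as CPM (left) and as percent of all gamma cluster counts (right), with vertical axes from 0; points are libraries and bars are mean and SD, n = 5. The 5 cocaine libraries lie between 5.68 and 8.42 CPM and between 1.99% and 2.32%, below all saline libraries in both panels.

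The genes beside Pcdhga2 did not share its separation. Pcdhga1, 7160 bases upstream by start site, stood at 5.30 ± 1.36 CPM in the cocaine group and 6.38 ± 1.15 CPM in the saline group (SD, n = 5), a log2 fold change of −0.27 (SE 0.19). Pcdhga3, the next gene downstream, stood at 13.6 ± 2.80 and 16.4 ± 2.54 CPM, with −0.26 and an SE of 0.15. Pcdhgb1 followed at 7.46 ± 2.70 and 7.87 ± 0.598 CPM, with −0.08 and an SE of 0.22. The groups overlapped in all 3 neighbours.

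In gamma the second lowest log2 fold change was that of Pcdhgb4, at 2.97 ± 0.876 CPM in the cocaine group and 4.12 ± 0.977 CPM in the saline group (SD, n = 5), a log2 value of −0.47 with an SE of 0.24. Its groups overlapped, and cocaine replicate 5 was lowest at 1.58 CPM. Pcdhga11, the highest alternate gamma gene, averaged 19.8 ± 4.85 CPM in the cocaine group and 26.3 ± 4.51 CPM in the saline group (SD, n = 5), at −0.41 with an SE of 0.16. All cocaine libraries of Pcdhga11 but replicate 2 lay below every saline library. The smallest differences were those of Pcdhgb8 at −0.04 and Pcdhgb2 at −0.05, with SEs of 0.34 and 0.23. Pcdhgb2 stood at 6.15 ± 2.21 CPM in the cocaine group and 6.39 ± 1.14 CPM in the saline group. The C-type genes had log2 fold changes of −0.22 for Pcdhgc5, −0.18 for Pcdhgc3, −0.06 for Pcdhgc4, −0.45 for Pcdhac2 and −0.33 for Pcdhac1.

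Pcdhgc3 had the lowest biological coefficient of variation in the edgeR fit, 0.0922, where the median was 0.194 over the 56 members and 0.154 over all genes tested. By the plain coefficient of variation of CPM over all 10 libraries Pcdhb17 was lower, at 7.56% against 8.99% for Pcdhgc3. Pcdhgc3 stood at 67.6, 60.2, 57.7, 63.0 and 63.1 CPM in saline replicates 1 to 5 and at 56.3, 60.6, 52.7, 51.0 and 53.7 CPM in cocaine replicates 1 to 5. Cocaine replicate 2 again lay within the saline range. Pcdhgc5 ran from 67.5 to 114 CPM with cocaine and from 86.3 to 108 CPM with saline, and cocaine replicate 2 was its highest library. Pcdhac2 ran from 13.1 to 29.7 CPM with cocaine and from 22.3 to 32.2 CPM with saline, with 4 cocaine libraries below every saline library.

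Alpha genes had the lowest counts and the widest spread, with a median biological coefficient of variation of 0.284 against 0.172 in beta and 0.173 in gamma. Pcdha10 had the lowest log2 fold change of all members, −0.85 with an SE of 0.25. Its level was 2.87, 1.64, 2.77, 2.55 and 2.96 CPM in saline replicates 1 to 5 and 1.42, 1.92, 1.55, 1.41 and 0.788 CPM in cocaine replicates 1 to 5. Cocaine replicate 2 lay above saline replicate 2, so the groups overlapped. Pcdha1 stood at 0.643 ± 0.240 CPM in the cocaine group and 1.11 ± 0.319 CPM in the saline group (SD, n = 5), at counts of 17 to 59, and had −0.78 with an SE of 0.32. Pcdha8 and Pcdha2 had the smallest differences, −0.12 and −0.14 with SEs of 0.53 and 0.24.

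In beta the lowest log2 fold changes were those of Pcdhb13, −0.48 with an SE of 0.15, and Pcdhb8, −0.42 with an SE of 0.18. Pcdhb13 stood at 10.2, 7.54, 7.35, 8.94 and 10.1 CPM in saline replicates 1 to 5 and at 5.70, 6.88, 7.48, 6.66 and 4.78 CPM in cocaine replicates 1 to 5. The ranges met only at cocaine replicate 3 and saline replicate 3. Pcdhb7 and Pcdhb4 had the smallest differences, both at −0.05, with SEs of 0.10 and 0.22. The most abundant beta gene, Pcdhb9, ran from 16.1 to 23.2 CPM with cocaine and from 20.7 to 29.7 CPM with saline, with a log2 fold change of −0.29 (SE 0.12).

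Besides Pcdhga2, the groups did not overlap in Pcdha5 and Pcdhb14, which were picked out after their values were seen. Such a separation with cocaine lower was found in 3 of 56 members, against 0.609% of all genes tested. Pcdhga2, which is 1 of these 3, was chosen for differing in these same libraries, so nothing is read from this count. Pcdha5 ran from 1.49 to 2.81 CPM with cocaine and from 3.11 to 3.61 CPM with saline, a log2 fold change of −0.71 (SE 0.19). Pcdhb14 ran from 8.18 to 9.66 CPM with cocaine and from 9.75 to 11.7 CPM with saline, so its groups were apart by less than their spread. Over both directions 1.38% of all genes tested did not overlap. In 9 further members 4 of the 5 cocaine libraries lay below every saline library, and in 4 members none did. The same counts were not taken over all genes tested, so nothing is read from them. No member was higher in every cocaine library than in every saline library, against 0.773% of all genes tested.

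The gamma share of the family's counts differed little between libraries. Gamma members held 58.0% to 60.1% of the family's counts, beta members 29.9% to 34.2% and alpha members 6.88% to 10.4%. The gamma share was 59.2% ± 0.706 with cocaine and 58.9% ± 0.790 with saline (SD, n = 5), and the alpha share 8.14% ± 1.24 and 9.33% ± 0.817. Groups overlapped in all 3 shares. In the alpha share 3 cocaine libraries lay below every saline library and 0 above. In the beta share 3 lay above and 1 below, and in the gamma share 1 above and 0 below.

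Genes that act on or with the clusters were taken from lists of textbook roles. A first list held 16 genes for cluster choice and chromatin: the insulator factor Ctcf, cohesin and its regulators, DNA methyltransferases and silencing factors. Of these 16, 5 had a fold change above 1 and 11 below, with a median of −0.06, where 46.4% of all genes tested were below 1. The highest was the DNA methyltransferase Dnmt3b, at 0.35 with an SE of 0.30. Of 17 genes for intracellular partners and processing (the kinases Ptk2, Ptk2b and Fyn, the WAVE actin complex, cutting enzymes and neuroligins), 2 were above and 15 below, with a median of −0.11. The highest was Psen2, a gamma-secretase subunit, at 0.04 with an SE of 0.11, and the lowest the synaptic adhesion gene Nlgn1, at −0.38 with an SE of 0.10. In edgeR 0 genes of these lists were called, and the groups did not overlap in 1, Adam10, a cutting enzyme picked out after its values were seen (−0.15, SE 0.07). Over all genes tested 0% were called and 0.609% were apart with cocaine lower.

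The non-clustered delta protocadherins, relatives that lie as single genes outside the clusters, had fold changes below 1 in 10 of 10 genes, against 46.4% of all genes tested, with a median log2 fold change of −0.22. They ranged from −0.28 for Pcdh17 (SE 0.14) to −0.06 for Pcdh18 (SE 0.21). Their median lay close to the −0.23 of the clustered members, and 0 of them were called (0% of all genes) or had groups that did not overlap (1.38% of all genes).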

How the data were processed

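Poly(A) RNA libraries of 5 cocaine and 5 saline mice were compared. The authors deposited raw counts per Ensembl gene; cutadapt, STAR, Cufflinks, HTSeq and mm10 are named without versions or roles, per the submitters' processing notes. Which annotation release, strand setting and filters were used is not stated there. Of 49315 table genes, 48988 matched GENCODE M21, which gave symbols and exons; Pcdha10 was placed by RefSeq.

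Counts were tested with edgeR 4.0.16 (R 4.3.3; TMM, filterByExpr, two-sided quasi-likelihood F test), with Benjamini-Hochberg adjustment over 17080 genes. DESeq2 1.42.0 and limma 3.58.1 voom were alternatives. The SE is the log2 fold change divided by the square root of F. Library totals of 34991548 to 46481533 limit precision mainly for alpha genes. Litters, cages and days are not given.

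Members and lists were chosen with earlier results of these data known. Named members are Pcdhga2, its neighbours, the C-type genes, the 3 highest and 1 lowest by level per cluster, and the 2 highest and 2 lowest by fold change per cluster; Pcdha5 and Pcdhb14 were added after their values were seen. Further marker lists covered oligodendrocyte precursors, Cajal-Retzius cells, CA1 and CA3 pyramidal cells, microglia and endothelium, at median log2 fold changes of 0.04, −0.08, −0.09, −0.03 and −0.03. The lowest value of the list for cluster choice and chromatin is not reported here.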

Additional observations from a re-analysis of the deposited data

Results flagged for a closer look

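In 60 groups of 5 libraries examined for a library far from the others, 3 were found. Chance gives about 1 in 20, so this is about the number that chance alone would give. Pcdha12 stood at 8.61 CPM in cocaine replicate 2, above a range of 3.57 to 4.83 CPM in the rest of its group. The same gene stood at 3.85 CPM in saline replicate 2, below a range of 6.32 to 6.71 CPM in the rest. Pcdhb8 stood at 6.93 CPM in saline replicate 5, above a range of 4.43 to 5.12 CPM in the rest.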

How the results depend on the processing

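Over all genes edgeR called 0 (1521 at an unadjusted p under 0.05), DESeq2 21, voom 95 and edgeR without 1 library 0 to 129, the 129 without cocaine replicate 5. Of the members 0 were called by edgeR, and 1, Pcdhga2, by DESeq2 and by voom; leaving out 1 library gave 0 to 1. With all libraries, members with a fold change above 1 numbered 0 in edgeR without a replicate block, 0 in DESeq2 and 2 in voom. They numbered 0 to 5 without 1 library and 10 without the 3 libraries richest in choroid plexus markers. With the replicate block 1 member was above 1 and 0 genes were called; same-numbered libraries had correlations of deviations from −0.31 to 0.09, so the numbers were not taken to pair mice. The cocaine minus saline difference in the Pcdhga2 share was −0.93 percentage points of gamma counts, −1.70 of gamma counts without C-type genes and −0.54 of all members' counts. The order of cluster levels was the same in every alternative run, though its p was the smallest the design allows each time and the sizes moved with the length used. Medians of the 3 clusters stayed below 0 in every alternative run; leaving out 1 library gave −0.56 to −0.24 for alpha, −0.29 to −0.17 for beta and −0.30 to −0.13 for gamma, with the lowest of each without cocaine replicate 2 and the highest without cocaine replicate 5.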
